A study of Danio rerio with 32 samples.

Results

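V2a interneurons that had taken up an axonal tracer (D3W, 5 libraries) were compared with V2a interneurons of the same cord segments without tracer (G3W, 5 libraries), 3 weeks after spinal cord injury in zebrafish. The genes described are those at 1 FPKM or more (fragment counts scaled by gene length and library total) in at least 5 of these 10 libraries. They number 15019 of the 42370 genes in the deposited table, and 12798 of them have a symbol. Of these genes 3700 reached 1 FPKM in all 10 libraries, 1821 did so in exactly 5, and 1941 genes reached it in 4 and were left out. The limit lets in genes seen in 1 group alone: 163 were at 1 FPKM or more in the 5 G3W libraries only, and 0 in the 5 D3W libraries only.

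All fish carried the Tg(Chx10:GFP) transgene, which marks V2a interneurons with green fluorescent protein, and the traced and the untraced cells were both sorted for green fluorescence. Rhodamine dextran, a tracer carried back along axons to the cell body, marked the D3W cells, which are labelled as having a regrown axon. G3W cells were green fluorescent without rhodamine dextran and are labelled as lacking one. Both came from spinal cord segments 1 to 7, rostral to the lesion, of 20 fish per condition at 3 weeks after injury. The study also held tracer-positive and tracer-negative V2a cells at 8 weeks after injury (D8W, 6 libraries, and G8W, 5) and from uninjured fish (Dcon, 5 libraries, and Gcon, 6). The age of the fish is not given in the labels. A cell without tracer may have no axon reaching the tracer or may not have taken it up, and the labels do not separate these. Whether the 5 libraries of each group stem from different fish is not stated, and p-values therefore describe the spread among these libraries only, which may be technical.

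V2a interneurons are excitatory neurons of the ventral spinal cord that project along the same side of the cord. In zebrafish they drive motor neurons during swimming, and several classes are known that are active at slow, intermediate or fast swimming speeds. Spinal neurons of zebrafish, unlike those of mammals, can regrow axons across a lesion after injury.

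The D3W libraries held fewer detected genes than the G3W libraries. At 1 FPKM or more, 14230, 16366, 7755, 14078 and 8710 genes were detected in D3W libraries 1 to 5, against 17057, 17587, 17746, 16193 and 17584 in G3W libraries 1 to 5. The means were 12228 ± 3773 in D3W and 17233 ± 637 in G3W (SD, n = 5 each; difference -5005.6, exact permutation test, two-sided, p = 0.0159, where the smallest p possible is 0.00794). D3W libraries 3 and 5 stood apart with the fewest, and the sole overlap between the groups was D3W library 2 with G3W library 4. Library totals inferred from the steps of the FPKM values were similar, at 15.6 to 27.7 M fragments in D3W and 13.2 to 25.5 M in G3W, and 3 fragments on a 1 kb gene correspond to 0.108 to 0.192 FPKM in D3W and 0.117 to 0.228 in G3W. In bulk samples fewer cells of a type and less RNA per cell cannot be told apart. Because libraries 3 and 5 of D3W differ from the other D3W libraries, the main counts below are also given without them.

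**Figure D1:**
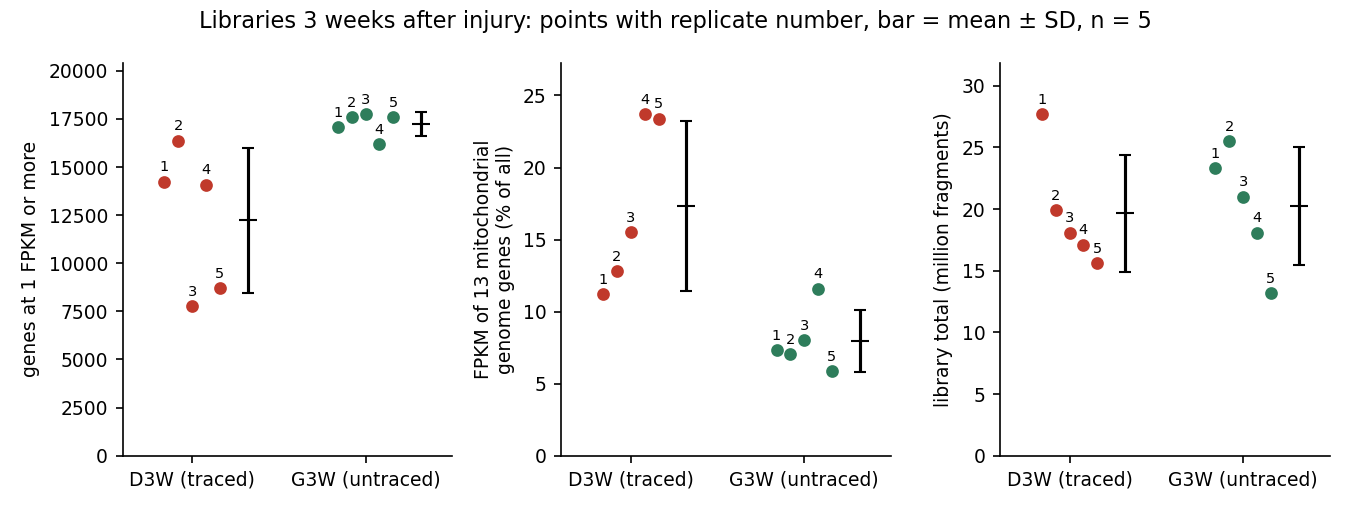
Number of genes at 1 FPKM or more (left), share of summed FPKM in the 13 protein genes of the mitochondrial genome in percent (middle) and inferred library total in M fragments (right) for the 5 D3W and 5 G3W libraries, with the replicate number at each point and the mean ± SD beside them. D3W libraries 3 and 5 have 7755 and 8710 detected genes, against at least 16193 in each G3W library.

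The label was checked against V2a markers. SOX14 (ENSDARG00000070929), a SoxB2 factor known from V2 interneurons, had 8.87, 20.9, 0, 18.3 and 66.8 FPKM in D3W libraries, against 144, 140, 165, 128 and 250 FPKM in G3W libraries, with no overlap. SOX14 fell by 3.21 ± 0.68 (SE) on the log2(scaled FPKM + 1) scale (limma adjusted p = 0.0102), a call kept in all 10 fits that left out 1 library and without D3W libraries 3 and 5 (adjusted p = 0.00373). The call was lost when only the D3W and G3W libraries were fitted (adjusted p = 0.128) and with the number of detected genes in the model (adjusted p = 0.156). The genes of SLC17A6, the vesicular glutamate transporter of excitatory neurons, were present in both groups. The copy ENSDARG00000041150 had 35.4 to 88.8 FPKM in D3W libraries and 27 to 81.4 FPKM in G3W libraries. Its sister ENSDARG00000001127 had 0 to 19.8 FPKM in D3W libraries and 6.23 to 33.6 FPKM in G3W libraries. Neither passed the test (adjusted p = 0.762 and 0.752). VSX1 was listed at 0 in all D3W libraries, reached 11.5 FPKM in 1 G3W library and is not among the 15019 genes. Of the 9 V2a and glutamatergic markers measured, 0 were higher and 2 were lower in D3W, where 1.46% of all 15019 genes were lower. Among the 9 differences 7 were negative and 2 positive, where 5390 of all 15019 were positive. The 12 genes of the list summed to 83.3 to 264 FPKM in D3W libraries and 525 to 1211 in G3W libraries, with no overlap.

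Markers of other cells of the cord were present in both groups. Oligodendrocyte and Schwann markers summed to 2113 to 19963 FPKM in D3W libraries (median 8424) and 3736 to 10792 in G3W libraries (median 7819), over 14 genes of which 12 are among the 15019. The myelin gene mbpa alone had 1430, 4980, 6920, 2420 and 973 FPKM in D3W libraries, against 2940, 1700, 2130, 4000 and 5210 FPKM in G3W libraries. Myelin transcripts were abundant in every library, with the highest value in D3W library 3, and the groups overlapped.

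Astroglia and ependymal markers, 27 genes with 21 among the 15019, summed to 1156 to 3292 FPKM in D3W libraries and 1585 to 2288 in G3W libraries. Of the 21, 14 had positive and 7 negative differences, from -1.98 to 3.38. The median was 0.76 as scaled and 0.24 on FPKM as deposited. GFAP, the filament protein of astroglia, had 198, 56.4, 0, 125 and 507 FPKM in D3W libraries, against 7.51, 40, 1.26, 21.5 and 15 FPKM in G3W libraries, so that 4 of the 5 D3W libraries were above all G3W libraries (difference 2.72 ± 1.34, adjusted p = 0.369). S100B, a calcium-binding protein of glia, had 109 to 298 FPKM in D3W libraries and 24.4 to 82.4 in G3W libraries with no overlap (difference 2.57 ± 1.14, adjusted p = 0.309). Neither passed.

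Microglia and macrophage markers, 39 genes with 18 among the 15019, summed to 798 to 12714 FPKM in D3W libraries and 696 to 2855 in G3W libraries. Of the 18, 12 had negative and 6 positive differences, where 5390 of all 15019 were positive. The median was -0.30, against -0.34 over all 15019 genes, and 0 passed. In the 4 D3W libraries other than library 1 most of the sum was apoeb, a lipid carrier made by microglia and other glia, at 313, 3140, 11800, 3060 and 3050 FPKM in D3W libraries, against 204, 214, 130, 996 and 1380 FPKM in G3W libraries. Its difference of 3.38 ± 0.97 did not pass (adjusted p = 0.0825). The antigen-presentation gene cd74a had 175 to 658 FPKM in D3W libraries and 267 to 1190 in G3W libraries. P2RY12, a defining microglial receptor, was listed at 0 in all D3W libraries and at 0 to 3.21 FPKM in G3W libraries, and csf1ra, the receptor on which macrophages depend, was at 0 to 10.9 FPKM in D3W libraries and 0 to 2.12 in G3W libraries. In the table, 9 of the 39 genes were at 0 in every D3W library and 5 in every G3W library.

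Inhibitory neuron markers (13 measured) had 1 gene that passed, where 1.72% of all 15019 genes passed. None of the measured oligodendrocyte, astroglia, microglia, motor neuron (4), neutrophil and lymphocyte (5), endothelial and mural (6), fibroblast and meningeal (8), erythrocyte (4) or muscle and skin (3) markers passed. The part of these marker levels in the results below was not tested.

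Across all 15019 genes, 258 (1.72%) passed at a limma adjusted p under 0.05. Of these, 39 (0.26%) were higher in D3W and 219 (1.46%) were lower. Counts of called genes in any list are to be read against these shares. Over all 22552 genes tested in the series, 289 (1.28%) passed. Overlap between groups, here and elsewhere, was judged on FPKM as deposited, before scaling. Every D3W library was above every G3W library for 27 genes (0.18%), and every D3W library was below every G3W library for 1053 (7.01%). Among the called genes this held for 15 of the 39 higher and 198 of the 219 lower ones. The called genes were picked by their difference, so their lack of overlap is no further finding. Of the 219 lower genes, 64 had no D3W library at 1 FPKM. These are included through G3W alone, so the limit fixed their direction and their lack of overlap. The same holds for all 163 genes of this kind, which are part of the 1053. The median log2 difference as scaled was -0.34 over the 15019 genes and -0.29 over all genes tested. As scaled, 5390 of the 15019 differences were positive. Counts of positive or negative differences in any list are to be read against this. On FPKM as deposited, the values used for overlap, the median over the 15019 genes was -0.75. At an unadjusted p under 0.05, 538 genes were higher and 1804 lower.

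**Figure D2:**
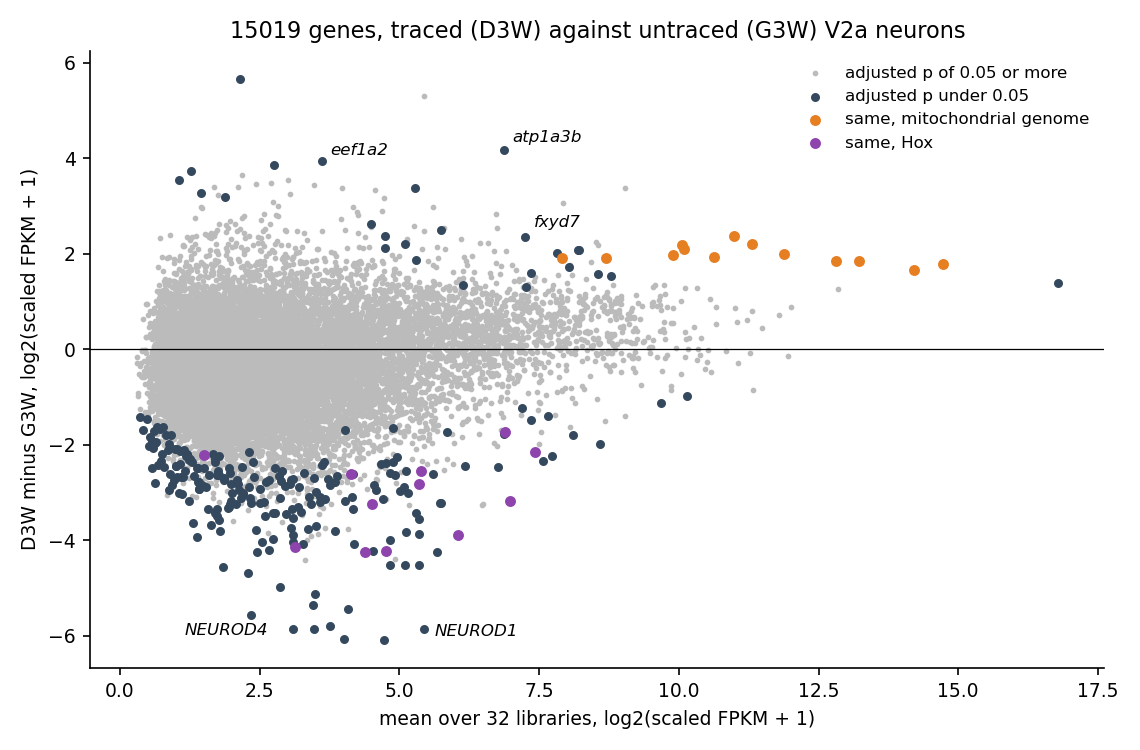
Difference D3W minus G3W on the log2(scaled FPKM + 1) scale against the mean over all 32 libraries on the same scale, for 15019 genes. Genes at an adjusted p under 0.05 are dark or coloured: 13 mitochondrial genome genes lie together at the high-expression end above 0, and 12 Hox genes lie below 0 at low to middle levels.

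These counts changed when libraries were left out. Without D3W libraries 3 and 5, 48 genes passed, of which 6 were higher and 42 lower. All 258 genes then kept the direction of their difference, and 6 of the 39 higher and 39 of the 219 lower genes kept the call. With each of the 10 libraries left out in turn, 121 to 267 genes passed. The count was 142 without D3W library 3 and 144 without D3W library 5, and it was 144, 162, 121, 149 and 161 without G3W libraries 1 to 5. Of the called genes, 19 of the 39 higher and 71 of the 219 lower ones kept their call in every one of the 10 fits.

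The genes higher in D3W included several of sodium transport and excitability. The gene atp1a3b, the neuronal alpha-3 subunit of the sodium-potassium pump, had 810, 534, 201, 179 and 75.3 FPKM in D3W libraries 1 to 5, against 40.8, 36.8, 31.7, 33.7 and 1.9 FPKM in G3W libraries 1 to 5. All D3W libraries lay above all G3W libraries. It rose by 4.17 ± 0.68 on the log2 scale (limma adjusted p = 0.000949) and was called in all 10 fits that left out a library and without D3W libraries 3 and 5 (adjusted p = 0.00259). The pump modulator fxyd7 had 824, 463, 424, 192 and 564 FPKM in D3W libraries, against 122, 100, 273, 158 and 85.3 FPKM in G3W libraries. It rose by 2.34 ± 0.51 (adjusted p = 0.0136; 0.155 without D3W libraries 3 and 5), with D3W library 4 inside the G3W range. SCN4B (ENSDARG00000060319), a sodium channel beta subunit known for resurgent current in mammalian neurons, had 103, 272, 29.5, 36.5 and 350 FPKM in D3W libraries, against 3.29, 9.08, 17.3, 83.3 and 9.96 FPKM in G3W libraries. It rose by 3.38 ± 0.82 (adjusted p = 0.0286), the groups overlapping through G3W library 4, and lost the call without D3W library 2 or 5 or G3W library 1, 2, 3 or 5 (adjusted p up to 0.114).

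Of the sodium channel and pump genes measured, 3 of 22 passed, all higher, where 0.26% of all 15019 genes were higher. The median log2 difference was 0.57 as scaled, 0.04 on FPKM as deposited and 0.32 after quantile normalization. Among 56 potassium channel genes 1 was higher and 1 lower, where 0.26% and 1.46% of all 15019 genes were. KCNA1 (ENSDARG00000062942), a low-threshold delayed rectifier, had 102, 106, 6.57, 57.2 and 38.3 FPKM in D3W libraries, against 10.9, 11.3, 21.6, 22.4 and 11.6 FPKM in G3W libraries. D3W library 3 was below all G3W libraries and the other 4 above them. It rose by 2.12 ± 0.55 (adjusted p = 0.0404), a call kept without D3W library 3 and lost without any 1 of the other 9 libraries (adjusted p up to 0.101), yet without D3W libraries 3 and 5 together the adjusted p was 0.00594. KCNK5 (ENSDARG00000023587), a background potassium channel, was listed at 0 in 4 D3W libraries and at 1.52 in library 2, against 5.41 to 14.2 FPKM in G3W libraries, and fell by 2.93 ± 0.59 (adjusted p = 0.00701; 0.0805 without D3W libraries 3 and 5).

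**Figure D3:**
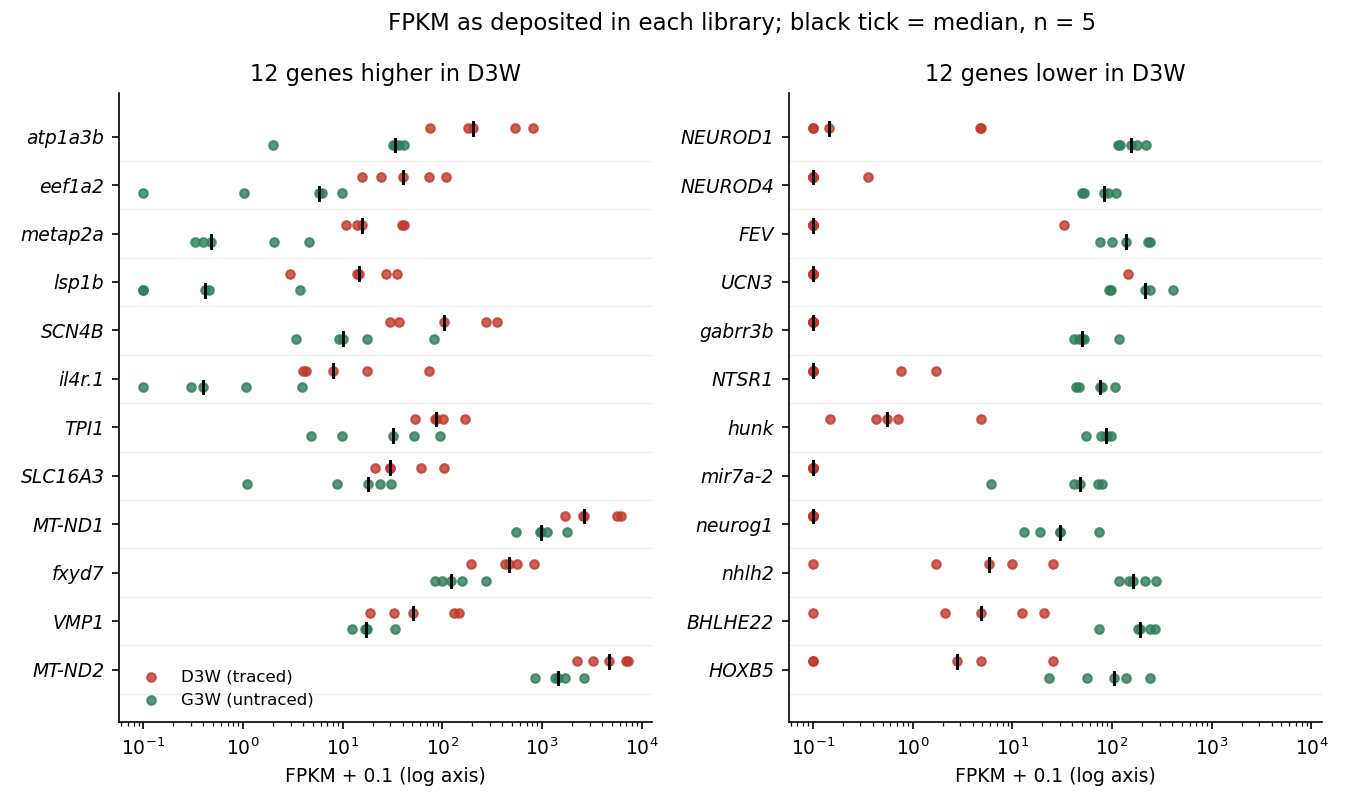
FPKM as deposited, plus 0.1, on a log axis for the 12 named genes with the largest rise and the 12 with the largest fall in D3W; points are libraries (n = 5 per group, D3W above G3W) and black ticks are medians. The atp1a3b points of D3W, from 75.3 to 810 FPKM, all lie above those of G3W, and NEUROD4 lies at or near 0 in each D3W library.

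Other genes among the 12 largest rises had diverse roles. The elongation factor eef1a2, the form that neurons and muscle use in place of eef1a1, had 110, 40.5, 15.4, 24.2 and 72.8 FPKM in D3W libraries, against 5.75, 6.04, 9.71, 0 and 0.935 FPKM in G3W libraries, and rose by 3.94 ± 0.86 (adjusted p = 0.0125) with no overlap. It was 1 of 79 translation factors to pass, where 1.72% of all 15019 genes passed. The gene metap2a, for an aminopeptidase that removes the first methionine of new proteins, had 10.8 to 41.3 FPKM in D3W libraries and 0.233 to 4.53 in G3W libraries and rose by 3.86 ± 0.79 (adjusted p = 0.00743), again with no overlap. The actin-binding gene lsp1b had 2.88 to 35.2 FPKM in D3W libraries and 0 to 3.64 in G3W libraries and rose by 3.74 ± 0.77 (adjusted p = 0.00765). These 3 genes were called in all 10 fits that left out a library but not without D3W libraries 3 and 5 (adjusted p = 0.0796, 0.0968 and 0.118).

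The interleukin receptor gene il4r.1 had 4.19, 3.88, 74, 7.82 and 17.3 FPKM in D3W libraries, against 0.199, 0.296, 0, 3.85 and 0.97 FPKM in G3W libraries. D3W library 3 was far above the rest, the lowest D3W value barely exceeded the highest G3W value, and the gene rose by 3.26 ± 0.80 (adjusted p = 0.0303). The glycolytic enzyme TPI1 (ENSDARG00000025012) had 52.9 to 168 FPKM in D3W libraries and 4.69 to 94.4 in G3W libraries and rose by 2.49 ± 0.60 (adjusted p = 0.0284). The lactate transporter SLC16A3 (ENSDARG00000045051) had 20.9 to 103 FPKM in D3W libraries and 1.01 to 30.6 in G3W libraries and rose by 2.37 ± 0.61 (adjusted p = 0.0407). VMP1, a membrane protein needed to form autophagosomes, had 18.8 to 147 FPKM in D3W libraries and 12.4 to 33.2 in G3W libraries and rose by 2.2 ± 0.56 (adjusted p = 0.037). For il4r.1, TPI1, SLC16A3 and VMP1 the call was lost in 6 or 7 of the 10 fits that left out a library, each time with D3W library 3 and G3W libraries 3 and 5 among those that ended it (adjusted p up to 0.124, 0.121, 0.156 and 0.131). TPI1 was the 1 glycolytic gene of 21 to pass, where 1.72% of all 15019 genes passed, and 17 of the 21 differences were positive.

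All 13 protein genes of the mitochondrial genome rose in D3W, where 0.26% of all 15019 genes did. Their log2 differences ran from 1.66 to 2.36 with a median of 1.93. MT-ND5, a subunit of respiratory complex I, had 1230, 1430, 1690, 2490 and 1790 FPKM in D3W libraries, against 641, 683, 431, 732 and 456 FPKM in G3W libraries. The groups did not overlap, and it rose by 2.18 ± 0.37 (adjusted p = 0.00119). MT-ATP6, a subunit of the ATP synthase, had 4200, 3890, 5160, 8740 and 9730 FPKM in D3W libraries, against 2570, 2660, 1940, 3400 and 1450 FPKM in G3W libraries, and rose by 1.99 ± 0.37 (adjusted p = 0.00301), also with no overlap. MT-ND1 rose by 2.36 ± 0.47, MT-ND2 by 2.2 ± 0.40 and MT-ND4 by 1.93 ± 0.38 (adjusted p = 0.00624, 0.0027 and 0.00531). In all, 5 of the 13 showed no overlap, where every D3W library was above every G3W library for 0.18% of all 15019 genes. All 13 were called, so their lack of overlap is no further finding.

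Together these 13 genes took 11.2, 12.8, 15.5, 23.7 and 23.4% of the summed FPKM in D3W libraries 1 to 5, against 7.3, 7.04, 8.01, 11.6 and 5.86% in G3W libraries 1 to 5. The shares averaged 17.3% ± 5.89 in D3W and 7.96% ± 2.18 in G3W (SD, n = 5 each), with 1 D3W library below the highest G3W library. The 91 nuclear genes of oxidative phosphorylation had a median log2 difference of 0.96 as scaled, 0.33 on FPKM as deposited and 0.52 after quantile normalization. As scaled, 85 of their differences were positive, but 0 passed. Of these, CYC1, a cytochrome of complex III, had the smallest p at a difference of 1.39 ± 0.40 (adjusted p = 0.0777). The number of mitochondrial genome genes called was 9 on FPKM as deposited, where the median difference was 1.30, and 6 after quantile normalization, where it was 1.36. Without D3W libraries 3 and 5 the median was 1.64, all 13 differences were positive, and 1 gene (MT-ND5) passed.

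Lysosomal proteases and an immediate-early gene were also higher in D3W. The protease CTSD, cathepsin D, had 323, 455, 549, 338 and 399 FPKM in D3W libraries, against 224, 201, 167, 71.2 and 163 FPKM in G3W libraries. Every D3W library was above every G3W library, and CTSD rose by 2.02 ± 0.37 (adjusted p = 0.0029; 0.0683 without D3W libraries 3 and 5). The related ctsla rose by 1.72 ± 0.38 and ctsf by 1.60 ± 0.38 (adjusted p = 0.0153 and 0.0226). The ctsla call was lost without D3W library 3 or 5 or G3W library 3, and the ctsf call without D3W library 5 or G3W library 3 or 4 (adjusted p up to 0.0597 and 0.0653). Cathepsins are also abundant in macrophages, whose summed markers are given above. CTSD, ctsla and ctsf were the 3 of 45 lysosome and endosome genes to pass, where 0.26% of all 15019 genes were higher. The median of the 45 differences was 0.47 as scaled but -0.10 on FPKM as deposited. JUNB (ENSDARG00000074378), a subunit of the AP-1 transcription factor, had 544, 307, 549, 440 and 790 FPKM in D3W libraries, against 500, 438, 291, 38.3 and 85.1 FPKM in G3W libraries. The groups overlapped, G3W libraries 4 and 5 being lowest, and JUNB rose by 2.07 ± 0.51 (adjusted p = 0.0316) with the call lost without D3W library 3, 4 or 5 or G3W library 4 or 5 (adjusted p up to 0.136). It was 1 of 27 immediate-early genes to pass, where 1.72% of all 15019 genes passed.

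Transcription factors of neuronal differentiation were among the largest falls. NEUROD1, a basic helix-loop-helix (bHLH) factor that drives neurons out of the progenitor state, had 0.0446, 4.79, 0, 4.64 and 0 FPKM in D3W libraries 1 to 5, against 179, 156, 221, 120 and 114 FPKM in G3W libraries 1 to 5. It fell by 5.87 ± 0.76 (adjusted p = 2.3e-05). NEUROD4 was listed at 0 in 4 D3W libraries and at 0.255 FPKM in library 2, against 52.5, 50, 110, 90.8 and 83.2 FPKM in G3W libraries, and fell by 5.86 ± 0.66 (adjusted p = 2.7e-06). The bHLH gene nhlh2 had 5.75, 9.82, 25.5, 1.63 and 0 FPKM in D3W libraries, against 214, 161, 275, 118 and 147 FPKM in G3W libraries, and fell by 4.53 ± 0.67 (adjusted p = 0.000176). BHLHE22, which acts in the specification of dorsal horn and retinal neurons in mouse, had 0 to 20.9 FPKM in D3W libraries and 74.5 to 270 in G3W libraries and fell by 4.52 ± 0.83 (adjusted p = 0.00295).

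None of these 4 genes had overlapping groups, and each was called in all 10 fits that left out a library and without D3W libraries 3 and 5, where the adjusted p was 0.00259 for NEUROD1, 0.000132 for NEUROD4, 0.000144 for nhlh2 and 0.0321 for BHLHE22. With the number of detected genes in the model BHLHE22 lost the call (adjusted p = 0.122), while NEUROD1, NEUROD4 and nhlh2 kept it. The proneural gene neurog1 was listed at 0 in all 5 D3W libraries, against 30.3, 18.7, 12.9, 73.8 and 29.9 FPKM in G3W libraries (adjusted p = 0.00701; 0.0657 without D3W libraries 3 and 5). NEUROD4 and neurog1 reached 1 FPKM in 0 D3W libraries and are included through G3W alone. For both, the limit fixed the direction and the lack of overlap.

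Several genes of peptide, transmitter and kinase signalling were near 0 in most D3W libraries. FEV, an ETS factor known for its role in serotonergic neurons, had 33.1 FPKM in D3W library 1 and was listed at 0 in the other 4, against 240, 137, 100, 230 and 76.4 FPKM in G3W libraries. UCN3, the peptide urocortin 3 of the corticotropin-releasing family, had 144 FPKM in D3W library 1 and was listed at 0 in the other 4, against 412, 242, 97.2, 216 and 93.7 FPKM in G3W libraries. D3W library 1 was thus the source of nearly all D3W signal for both genes, and for UCN3 it lay within the G3W range. FEV fell by 5.86 ± 1.00 (adjusted p = 0.00119) and UCN3 fell by 5.79 ± 1.01 (adjusted p = 0.00174; 0.0626 without D3W libraries 3 and 5). NTSR1, a receptor for neurotensin, had 0 to 1.62 FPKM in D3W libraries and 43.1 to 107 in G3W libraries and fell by 5.36 ± 0.90 (adjusted p = 0.00118). The kinase gene hunk had 0.0481 to 4.73 FPKM in D3W libraries and 55.3 to 97.9 in G3W libraries and fell by 5.12 ± 0.71 (adjusted p = 9.31e-05). NTSR1 was the 1 of 29 genes in the neuropeptide list to pass, where 1.72% of all 15019 genes passed. That list does not hold UCN3.

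Receptors for fast inhibition and excitation moved in both directions. The GABA receptor subunit gene gabrr3b was listed at 0 in all 5 D3W libraries, against 50, 52.9, 117, 47.1 and 41.8 FPKM in G3W libraries (adjusted p = 0.00104). GLRA2, a glycine receptor subunit prominent in immature neurons, was listed at 0 in all 5 D3W libraries, against 4.14, 32.1, 5.11, 11.6 and 5.47 FPKM in G3W libraries (adjusted p = 0.0229; up to 0.0826 without D3W library 3 or 5 or G3W library 2 or 4). GLRA1, the subunit of adult glycine receptors, had 126, 106, 69.7, 73.6 and 188 FPKM in D3W libraries, against 62.4, 73, 69.6, 67.8 and 48.4 FPKM in G3W libraries. It rose by 1.34 ± 0.36 (adjusted p = 0.0498), with D3W library 3 inside the G3W range, and lost the call when any 1 of the 10 libraries was left out (adjusted p up to 0.184). The GABA receptor subunit gabrg3 had 0 to 2.44 FPKM in D3W libraries and 5.92 to 57.8 in G3W libraries and fell by 3.53 ± 0.91 (adjusted p = 0.0406; lost in 7 of the 10 fits that left out a library, up to 0.122). In all, 1 of 27 GABA and glycine receptor genes was higher and 3 were lower, where 0.26% and 1.46% of all 15019 genes were. Of the 3, gabrr3b and GLRA2 reached 1 FPKM in 0 D3W libraries and are included through G3W alone. The limit thus fixed the direction of these falls. GRIA1 (ENSDARG00000032714), an AMPA-type glutamate receptor subunit, had 0 to 3.17 FPKM in D3W libraries and 3.06 to 14 in G3W libraries. It fell by 2.36 ± 0.60 (adjusted p = 0.0371; lost in 8 of the 10 fits that left out a library). GRIA1 was the 1 of 30 glutamate receptor genes to pass, where 1.72% of all 15019 genes passed.

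The microRNA gene mir7a-2, whose mature form miR-7 is known from neurons and endocrine cells, was listed at 0 in all 5 D3W libraries, against 79.6, 6.06, 41.7, 47.8 and 72 FPKM in G3W libraries. With 0 D3W libraries at 1 FPKM it is included through G3W alone, so the limit fixed the direction of its difference. It passed (adjusted p = 0.0188) but not without G3W library 1 or 5 (adjusted p up to 0.0594). The other 8 fits that left out a library kept the call, and the fit without D3W libraries 3 and 5 did not (adjusted p = 0.115).

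Hox genes, which set position along the body axis, were lower in D3W. Of 34 measured, 12 fell and 0 rose, where 1.46% of all 15019 genes fell. Among the 12, hoxc1a reached 1 FPKM in 0 D3W libraries and is included through G3W alone, so the limit fixed its direction. All 34 differences were negative, also on FPKM as deposited and after quantile normalization, with a median of -1.91 against -0.34 over all 15019 genes. The differences ran from -4.25 for HOXB5 (ENSDARG00000054030) to -0.03 for HOXD9. HOXB5 had 25.8, 4.75, 0, 2.66 and 0 FPKM in D3W libraries, against 139, 104, 56.5, 238 and 23.1 FPKM in G3W libraries (adjusted p = 0.0158; up to 0.0614 without D3W library 3 or 5 or G3W library 4). HOXC4 was listed at 0 in 4 D3W libraries and at 2.16 FPKM in library 2, against 35.2, 42.8, 25.9, 20.4 and 16.1 FPKM in G3W libraries, and fell by 4.15 ± 0.83 (adjusted p = 0.00621). HOXB9 had 14.3, 22.9, 7.16, 23.8 and 8.78 FPKM in D3W libraries, against 97.8, 94, 198, 168 and 128 FPKM in G3W libraries, and fell by 2.55 ± 0.53 (adjusted p = 0.00867). HOXA3, expressed in all 10 libraries, had 45.8, 49.9, 89.9, 35.8 and 55.6 FPKM in D3W libraries, against 256, 291, 331, 354 and 180 FPKM in G3W libraries, and fell by 1.73 ± 0.37 (adjusted p = 0.0114).

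HOXC4, HOXB9 and HOXA3 showed no overlap, and the HOXB5 groups overlapped through D3W library 1. By paralog group, which follows the order of the genes along a Hox cluster, the median difference was -1.65 over the 9 genes of groups 1 to 3, -2.82 over the 11 of groups 4 to 6, -2.0 over the 4 of groups 7 and 8 and -1.25 over the 10 of groups 9 to 11. Groups 4 to 6 held 6 of the 12 genes that fell. The difference between paralog groups was not tested. Without D3W libraries 3 and 5 all 34 differences were negative, the median was -1.83 and 2 genes passed. Leaving out D3W library 3 or G3W library 4 alone left 3 genes that passed, and leaving out G3W library 1, 2 or 3 left 5. Of the 34 differences 2 were positive without D3W library 1. In the fits without D3W library 2 or 4 or G3W library 3, 4 or 5, 1 was positive. With only the groups compared 5 genes passed, and with the number of detected genes in the model 1 did. In the traced and untraced cells of uninjured fish 28 of the 34 differences were negative, and at 8 weeks 33 were.

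**Figure D4:**
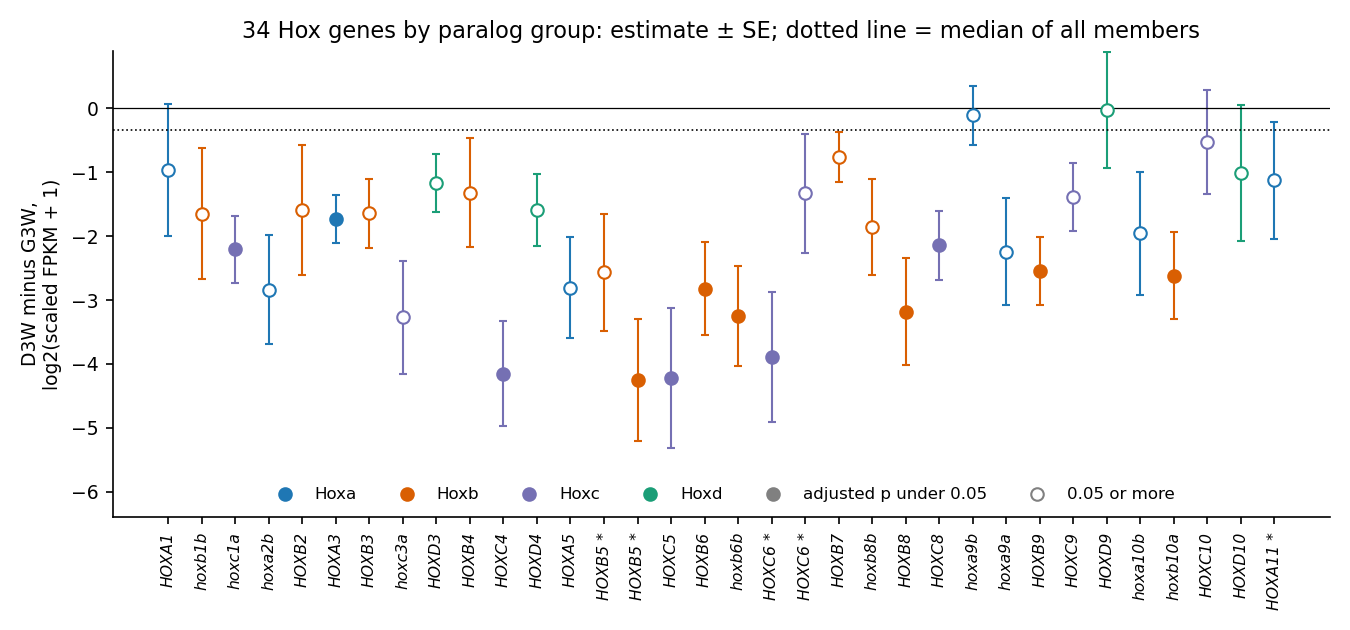
Difference D3W minus G3W on the log2(scaled FPKM + 1) scale, ± SE, for 34 Hox genes ordered by paralog group and coloured by cluster; filled points are the 12 at an adjusted p under 0.05, and an asterisk marks a symbol shared by several gene IDs. All 34 estimates lie below 0, between -4.25 and -0.03.

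Few genes of axon growth and the injury response passed. Of 54 growth cone and axon cytoskeleton genes 3 were lower and 0 higher, where 1.46% and 0.26% of all 15019 genes were. The median log2 difference was 0.00 as scaled, -0.58 on FPKM as deposited and -0.15 after quantile normalization, and the summed FPKM of the list was 6567 to 11512 in D3W libraries and 12147 to 14766 in G3W libraries, so no direction is given for the list. All 3 encode substrates of protein kinase C that bind actin and the membrane. The gene marcksl1b had 524, 685, 751, 760 and 512 FPKM in D3W libraries, against 1960, 1790, 1740, 2000 and 2310 FPKM in G3W libraries, and fell by 0.98 ± 0.23 (adjusted p = 0.0231). Its relative marcksl1a had 37.1 to 109 FPKM in D3W libraries and 284 to 433 in G3W libraries and fell by 1.77 ± 0.44 (adjusted p = 0.0316). MARCKS (ENSDARG00000008803) had 1.09 to 35 FPKM in D3W libraries and 94.8 to 214 in G3W libraries and fell by 2.46 ± 0.62 (adjusted p = 0.0368). None of the 3 had overlapping groups, and they lost the call in 4 to 8 of the 10 fits that left out a library (adjusted p up to 0.156). The growth cone protein gene gap43 had 271, 213, 660, 633 and 227 FPKM in D3W libraries, against 317, 432, 523, 124 and 333 FPKM in G3W libraries. These ranges overlapped, and the difference of 0.81 ± 0.65 did not pass (adjusted p = 0.619).

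Among 41 injury and regeneration factors 1 was higher, JUNB, and 2 were lower, where 0.26% and 1.46% of all 15019 genes were. SOX11 (ENSDARG00000077811), a SoxC factor of immature and regenerating neurons, had 7.65, 17.8, 4.61, 26.7 and 37.4 FPKM in D3W libraries, against 133, 138, 125, 65.8 and 127 FPKM in G3W libraries. It fell by 2.26 ± 0.57 (adjusted p = 0.036; lost in 7 of the 10 fits that left out a library, up to 0.11) with no overlap, and its sister copy ENSDARG00000095743 had a difference of -1.14 ± 0.75 (adjusted p = 0.531). The related SOX4 (ENSDARG00000004588) had 5.69 to 26.3 FPKM in D3W libraries and 101 to 186 in G3W libraries and fell by 2.63 ± 0.62 (adjusted p = 0.0229; up to 0.0716 without D3W library 1 or G3W library 3 or 5). ATF3, a factor induced in neurons by axon injury, had 221, 66.8, 154, 109 and 125 FPKM in D3W libraries, against 101, 106, 106, 22.6 and 35.8 FPKM in G3W libraries. Its difference of 1.63 ± 0.55 did not pass (adjusted p = 0.154).

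The neurofilament light chain gene nefla had 271, 85, 31.7, 28.9 and 31 FPKM in D3W libraries, against 10.3, 8.98, 10.1, 7.87 and 7.54 FPKM in G3W libraries. Every D3W library was above every G3W library, yet the difference of 3.17 ± 0.89 missed the threshold (adjusted p = 0.0683). The adjusted p was 0.0301 when only the groups compared were fitted, 0.168 without D3W libraries 3 and 5, 0.22 with the number of detected genes in the model and up to 0.161 with 1 library left out. Of 7 neurofilament genes 6 had positive differences, with a median of 1.55, and 0 passed. The S100 genes icn and s100a10b, of calcium binding, overlapped between groups, whereas S100B, given above with the astroglia markers, did not. Of the 16 annexin and S100 genes measured, 13 had positive differences and 0 passed. Their median difference was 1.01 as scaled and 0.48 on FPKM as deposited. For icn the levels were 925 to 3130 FPKM in D3W libraries and 317 to 4100 in G3W libraries (difference 0.61 ± 1.09, adjusted p = 0.849), and for s100a10b they were 64.5 to 1570 FPKM in D3W libraries and 88.9 to 482 in G3W libraries (difference 1.14 ± 0.95, adjusted p = 0.638).

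Other gene lists had few or no called genes. The lists hold chosen symbols and are not complete. None of the listed genes passed among 51 synaptic vesicle, 62 axon guidance, 29 calcium channel, 74 spliceosome, 82 cytosolic ribosomal protein, 34 heat shock, 48 proteasome, 36 p53 and apoptosis, 19 sterol synthesis, 11 serine and one-carbon, 16 annexin and S100 or 12 cell cycle genes. Genes with such roles outside the lists, looked up after their values were seen, did pass. The vesicle protein gene vamp1a averaged 503 FPKM in D3W and 192 FPKM in G3W (difference 2.08 ± 0.42, adjusted p = 0.0072) and cplx2a, a regulator of vesicle release, 520 FPKM in D3W and 251 FPKM in G3W (difference 1.57 ± 0.36, adjusted p = 0.0188). NRP2 (ENSDARG00000096546), a semaphorin receptor, averaged 2.38 FPKM in D3W and 33 FPKM in G3W (difference -3.30 ± 0.74, adjusted p = 0.0158). The RNA-binding gene rbmx and the spliceosome-associated PPIE were also lower in D3W, by differences of -2.88 and -3.03 (adjusted p = 0.0333 and 0.0383). PPIE averaged 0.05 FPKM in D3W and is included through G3W alone, so the limit fixed its direction. None of these 5 kept its call without D3W libraries 3 and 5, and vamp1a alone kept it in all 10 fits that left out a library. In the axon guidance list 46 of 62 differences were negative, with a median of -0.67 as scaled, -1.14 on FPKM as deposited and -0.29 after quantile normalization, and the smallest p of the listed genes belonged to SEMA3F (ENSDARG00000011163; difference -2.46 ± 0.68, adjusted p = 0.061). In the spliceosome and RNA binding list 59 of 74 were negative, with a median of -0.70 as scaled and -1.23 on FPKM as deposited. The median of the ribosomal protein genes was 0.05 as scaled and -0.58 on FPKM as deposited, so no direction is given for them. Among 47 kinesin and dynein genes KIF7, a regulator of Hedgehog signalling in the cilium, fell by 2.22 ± 0.56 (adjusted p = 0.0374) and was lost in 8 of the 10 fits that left out a library, and 0 rose. KIF7 had at most 0.935 FPKM in D3W libraries and is also included through G3W alone, which fixed its direction. Among 16 cytokine and gp130 genes il4r.1 alone passed. The calls in the kinesin and the cytokine list are to be read against the 1.72% of all 15019 genes that passed.

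The same traced and untraced populations were measured in uninjured fish and at 8 weeks. These libraries do not enter the 3-week difference itself, but they share its scaling and its estimate of the spread. Of the 39 genes higher in D3W, 35 had a positive difference between Dcon and Gcon, where 41.2% of all 15019 genes did, and all 39 had a positive difference between D8W and G8W, where 42.6% did. Of the 219 genes lower in D3W, 203 had a negative difference in uninjured fish, where 58.7% of all genes did, and 203 had one at 8 weeks, where 57.4% did. The median difference of the 39 genes was 1.05 in uninjured fish, 2.08 at 3 weeks and 1.13 at 8 weeks, and that of the 219 was -1.24 in uninjured fish, -2.81 at 3 weeks and -1.03 at 8 weeks. The genes were picked by their 3-week difference, so its larger size is no finding. For atp1a3b the differences were 2.38 in uninjured fish and 2.14 at 8 weeks, for eef1a2 3.50 and 2.69, and for NEUROD4 -3.99 and -4.35. The metap2a differences were -0.51 and 0.35, and those of lsp1b 1.13 and 0.03.

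**Figure D5:**
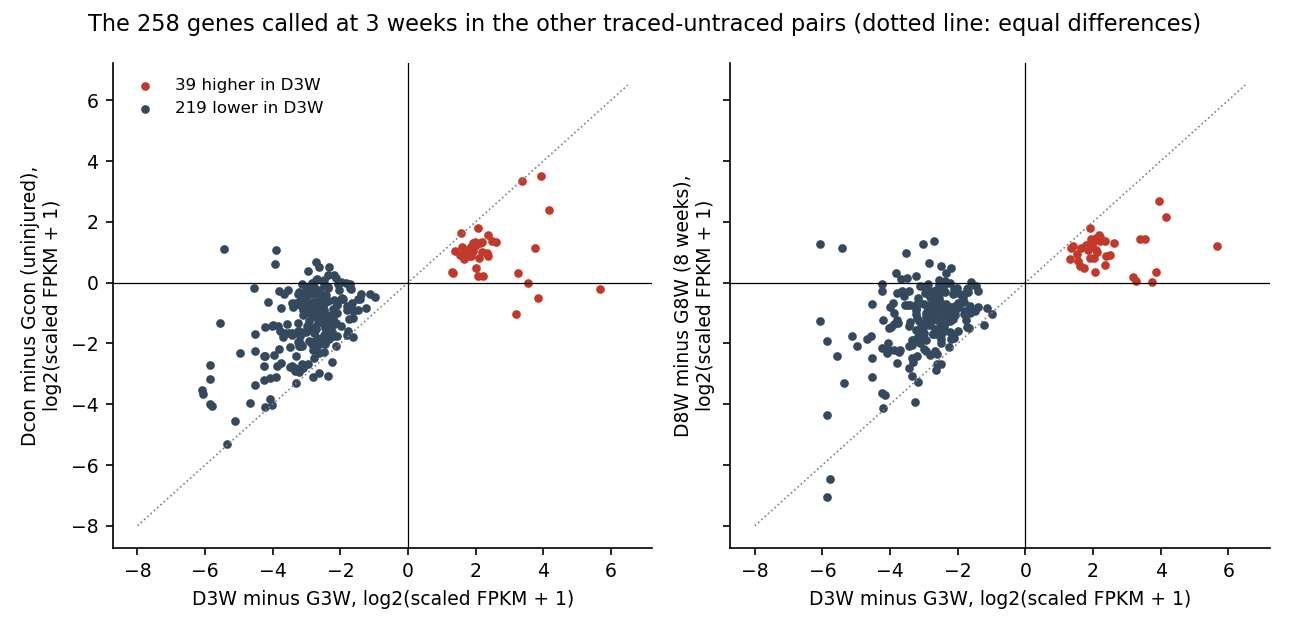
Difference Dcon minus Gcon in uninjured fish (left) and D8W minus G8W (right) against D3W minus G3W, all on the log2(scaled FPKM + 1) scale, for the 258 genes called at 3 weeks. Of the 39 genes higher at 3 weeks 35 lie above 0 on the left and 39 on the right, and of the 219 lower genes 203 lie below 0 in each panel.

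Whether the traced and untraced difference at 3 weeks differed from that in uninjured fish was tested as an interaction. It passed for 1 gene (0.00666%), a 5S_rRNA copy (ENSDARG00000108569), and 906 genes had an unadjusted p under 0.05. This copy was listed at 0 in all 5 D3W libraries, against 113, 61.5, 31.6, 64.3 and 27.5 FPKM in G3W libraries, while Dcon exceeded Gcon by 1.12 on the log2 scale (interaction adjusted p = 0.0255). 5S rRNA genes occur in many near-identical copies, so its reads cannot be assigned to it with certainty. Against the 8-week difference 3 genes passed (0.02%), with 754 at an unadjusted p under 0.05. A fraction of about 0.05 of genes falls under this limit with no difference present, so neither 906 nor 754 is a finding. The 3 genes that passed were the same 5S_rRNA copy (adjusted p = 0.0123), the uncharacterised si:ch211-280a23.3 (adjusted p = 0.0123) and IGDCC4, an immunoglobulin superfamily receptor gene (adjusted p = 0.0178). The gene si:ch211-280a23.3 was listed at 0 in all 5 D3W libraries, against 85.8, 75.7, 57.9, 83.2 and 116 FPKM in G3W libraries, while its difference at 8 weeks was 1.26. This gene and the 5S_rRNA copy are included through G3W alone, so the limit fixed the direction of their differences at 3 weeks. IGDCC4 had 0.145, 1.32, 0, 0 and 0 FPKM in D3W libraries, against 8.93, 7.9, 10.4, 7.96 and 7.71 FPKM in G3W libraries, while its difference at 8 weeks was 1.37. Without D3W libraries 3 and 5, 0 genes passed in either interaction. Leaving out any single one of D3W libraries 1, 3, 4 or 5, G3W libraries 1 or 2, Dcon libraries 1, 2 or 5 or Gcon libraries 2 to 5 also left 0 genes in the interaction with uninjured fish, and 2 passed without D3W library 2. In the interaction with 8 weeks, 1 gene passed without G8W library 5 and 2 to 4 without any other single library.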

How the data were processed

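The authors deposited 1 table of FPKM for 42370 genes, 31901 with Ensembl IDs and 10469 with IDs of the authors' own. HISAT2 2.0.5, HTSeq 0.9.1 and danRer11 are listed, with no roles or order, per the submitters' processing notes. Per the labels' protocols, cDNA was made with a low-input kit from sorted cells. Symbols came from a table of gene IDs (29178 matched); many are human-style, and shared symbols are given with the ID. FPKM was divided by median-ratio factors (6387 genes), whose mean log2 was -0.33 in D3W and 0.31 in G3W, so scaling adds 0.63 to the difference of well-expressed genes. The log2(scaled FPKM + 1) values of 22552 genes (1 FPKM or more in at least 5 of 32 libraries) were fitted with limma 3.58.1 in R 4.3.3 (trend, robust) over all 6 groups, with Benjamini-Hochberg adjustment over all genes tested and a two-sided threshold of 0.05. This scale understates the change of low genes. Library totals were inferred in Python 3.11.15 from whole multiples of FPKM steps (tolerance 0.05). The method was also run on simulated data, made by reshuffling residuals over all 32 libraries. Such data do not keep the low number of detected genes of D3W libraries 3 and 5, so no conclusion is drawn from them.

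Genes were named by rule: the 12 highest and 12 lowest log2 differences that passed, where the higher mean reached 5 FPKM, the medians went the same way and the symbol was no clone name; up to 4 passing genes per list (the smallest p where none passed) of 40 lists; the interactions' passing genes; and a few fixed genes. The genes and lists were chosen with earlier results of these data known. All per-sample columns were used. No genome was used here, so no positions or sequences are given. A few genes that the rule names are not reported here.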

Additional observations from a re-analysis of the deposited data

Results flagged for a closer look

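In the groups of 5 libraries, 1 library stood far from the other 4 (Dixon's criterion at 5 values, 0.71) in 29 of 186 gene and group combinations, 16 in D3W and 13 in G3W; chance flags about 1 in 20 groups, and genes near 0 in 4 libraries meet the criterion easily. In D3W the single high library had 74 FPKM of il4r.1, 11800 of apoeb, 271 of nefla, 647 of GADD45B and 25.8 of HOXB5. In 10 genes with little or no D3W signal elsewhere, 1 D3W library had 144 FPKM of UCN3, 33.1 of FEV, 7.32 of GATA3, 4.73 of hunk, 4.59 of hemgn, 3.17 of GRIA1, 2.16 of HOXC4, 1.52 of KCNK5, 1.32 of IGDCC4 and 0.255 of NEUROD4, and POSTN had 0.0303.

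In G3W the single high library had 83.3 FPKM of SCN4B, 3.64 of lsp1b, 3.85 of il4r.1, 33.2 of VMP1, 117 of gabrr3b, 73.8 of neurog1, 41.4 of GJA1, 1640 of MT-ND4, 32.1 of GLRA2, 8.64 of UBE2C and 33.6 of SLC17A6 (ENSDARG00000001127). The single low G3W library had 1.9 FPKM of atp1a3b and 65.8 of SOX11 (ENSDARG00000077811).

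The difference between traced and untraced cells at 3 weeks departed from that in uninjured fish for 5S_rRNA (ENSDARG00000108569), by -6.55 on the log2 scale (limma adjusted p = 0.0255). It departed from that at 8 weeks for the same gene by -6.57, for si:ch211-280a23.3 by -7.33 and for IGDCC4 by -4.07 (adjusted p = 0.0123, 0.0123 and 0.0178). The first 2 genes were listed at 0 in every D3W library, so their estimates depend on the pseudocount. Both are included through G3W alone, so the limit fixed the direction of their differences at 3 weeks.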

How the results depend on the processing

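The 258 calls (39 higher, 219 lower) became 653 (21 and 632) on FPKM as deposited, 191 (27 and 164) after quantile normalization, 114 (26 and 88) when only the groups compared were fitted, 24 (4 and 20) with detected-gene number as covariate and 48 (6 and 42) without D3W libraries 3 and 5; the cause was not tested. Leaving out 1 library gave 121 to 267 calls, 23 to 46 higher and 98 to 225 lower. The median difference of all genes tested was -0.29 as scaled, -0.58 as deposited and 0.00 after quantile normalization. A replicate block gave 216 calls (36 and 180), but the numbers only name libraries: same-number deviations correlated between -0.09 and 0.03, and 0 of 5 D3W libraries correlated best with their own number. In the block the detected-gene difference of -5005.6 had p = 0.0625 (exact sign flips), the smallest that 5 pairs allow. A voom fit on recovered fragments, chosen after seeing the data, gave 354 calls (28 and 326).

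The interaction with uninjured fish passed for 0 genes with no filter, with the covariate and without D3W libraries 3 and 5, and for 0 to 2 with 1 library left out. The interaction with 8 weeks passed for 5 with array weights, 1 with only the groups compared, 1 by voom, 0 with the covariate and 0 without D3W libraries 3 and 5, and for 1 to 4 with 1 library left out. Among single genes 1540 values kept direction and side of the threshold, 311 lost the call, 24 gained it and 3 reversed, none of them called: icn (-0.020 as deposited) and SLC17A6 (ENSDARG00000041150, -0.18 as deposited; ENSDARG00000001127, -1.05 to 0.027 with 1 library left out, positive without D3W library 5).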

Other observations

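Families noticed among the called genes were counted after their values had been seen, so no test of a family is given. Over all 15019 genes 1.46% fell, and 5390 of the differences were positive. Of 12 neuronal bHLH factors measured, 9 fell in D3W and all 12 differences were negative, 5 of them passing without D3W libraries 3 and 5. Besides the genes described above, NEUROD2 was listed at 0 in all D3W libraries, against 1.69 to 48.8 FPKM in G3W libraries, and the NEUROD6 copies ENSDARG00000020794 and ENSDARG00000040008 had up to 15.2 and 10.9 FPKM in D3W libraries, against at least 68.3 and 44.8 in G3W libraries. Of 3 Ebf factors 2 fell: EBF3 had 0 to 16.7 FPKM in D3W libraries and 26.1 to 55.1 in G3W libraries (adjusted p = 0.0181), and EBF2 was listed at 0 in all D3W libraries, against 5.59 to 9.19 FPKM in G3W libraries (adjusted p = 0.0271). Of 6 Delta ligand genes, which signal to Notch, dlb and dlc fell: dlc was listed at 0 in all D3W libraries, against 5.47 to 33.6 FPKM in G3W libraries (adjusted p = 0.0102). Only 4 of the 6 Delta differences were negative. DLD had 22.7 to 116 FPKM in D3W libraries and 8.44 to 64.6 in G3W libraries (difference 1.48, adjusted p = 0.197). Of these genes, NEUROD2, NEUROD4, neurog1, BHLHE23, EBF2, dlb and dlc reached 1 FPKM in 0 D3W libraries and in all 5 G3W libraries. They are among the 15019 genes through G3W alone, so the limit fixed the direction of their differences. Of 16 Sox factors 5 fell and 0 rose. Of 8 Irx, Dlx, Pax and Nkx factors 0 passed.

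Of 6 genes of the HMGN family, chromatin proteins that bind nucleosomes, 2 fell in D3W, where 1.46% of all 15019 genes did, and 4 did not pass. The gene hmgn6 had 143 to 269 FPKM in D3W libraries and 621 to 1770 in G3W libraries (difference -1.99, adjusted p = 0.00118), and hmgn1b had 28.4 to 130 FPKM in D3W libraries and 196 to 630 in G3W libraries (difference -2.47, adjusted p = 0.00748). Both were also called without D3W libraries 3 and 5, and all 6 HMGN genes had negative differences.

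Genes known from serotonergic neurons were looked up after FEV was seen. TPH2, the enzyme of serotonin synthesis in neurons, had 0, 1.19 and 73.6 FPKM as lowest, median and highest D3W library, against 45.4, 109 and 128 in G3W libraries, and did not pass (adjusted p = 0.0591). DDC, GATA2 and GATA3 did not pass either (adjusted p = 0.0773, 0.0868 and 0.0763), and LMX1B (ENSDARG00000068365) had 0 to 1.98 FPKM in D3W libraries and 6.45 to 34.5 in G3W libraries (adjusted p = 0.0332). The transporter SLC6A4 was listed at 0 in all D3W libraries and reached 11.5 FPKM in G3W. Other genes looked up differed less or not at all. SLC18A2 had 0 to 98.5 FPKM in D3W libraries and 11.5 to 38.1 in G3W libraries (adjusted p = 0.389). For htr1aa the levels were 0 to 19.8 FPKM in D3W libraries and 9.85 to 18 in G3W libraries (difference 0.03, adjusted p = 0.995). The HTR1A difference was 0.33 (adjusted p = 0.874), and that of the LMX1B copy ENSDARG00000104815 was -1.50 (adjusted p = 0.214).

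The largest differences in each direction belonged to genes without a descriptive name. The gene si:ch211-153b23.5 had 121, 7.34, 44.3, 784 and 72.7 FPKM in D3W libraries 1 to 5, against 4.66, 5.24, 0, 0 and 0 FPKM in G3W libraries 1 to 5 (difference 5.66 ± 1.17, adjusted p = 0.00859), while its difference was -0.21 in uninjured fish and 1.19 at 8 weeks. ENSDARG00000113371 had 0, 0.492, 0, 0.287 and 0 FPKM in D3W libraries, against 63.9, 71.8, 133, 94.7 and 140 FPKM in G3W libraries (difference -6.08 ± 0.74, adjusted p = 9.92e-06). It is included through G3W alone, so the limit fixed its direction. Of the 39 higher genes 2 and of the 219 lower genes 57 carried IDs of the authors' own outside Ensembl, against 1886 of all 15019.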
